A study of Homo sapiens with 2 samples.

Results

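Pseudogenes are gene copies that are annotated as having lost the ability to make the protein of their parent gene. Processed pseudogenes arose when a spliced mRNA was copied back into the genome, so they hold the exons of the parent joined without introns, whereas unprocessed ones arose by duplication of a stretch of DNA, and nuclear copies of mitochondrial DNA are listed among the pseudogenes too. YB-1, the product of YBX1, is a cold shock domain protein that packages mRNA in the cytoplasm. A short RNA fragment from an abundant mRNA can have the same sequence as many of its pseudogenes, so the place where a fragment is mapped and the gene it was transcribed from can differ.

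The clusters described here lay in exons of pseudogenes. A cluster is a short stretch of the genome where the reads of a YB-1 PAR-CLIP library gather and carry T-to-C changes above the background. A cluster was taken when 1 or more of its bases lay on the sense strand of an exon that GENCODE release 44 gives to any kind of pseudogene, when it touched no exon of a protein-coding gene on that strand, and when it was not on the mitochondrial genome. This held for 214 of the 1382 clusters of Rep.A and for 315 of the 2011 clusters of Rep.B, 529 of 3393 in all. Clusters in exons of protein-coding genes, 735 in Rep.A and 942 in Rep.B, are given beside them for comparison.

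Both replicates came from wild-type HEK293T, an established line of human embryonic kidney origin, and there was 1 condition with no control library. The cells took up 100 µM 4-thiouridine for 16 h and were exposed to light of 365 nm at 0.15 J/cm2, which crosslinks the modified base to bound protein. The crosslinked base is then read as C in place of T. RNase T1, an enzyme that cuts RNA behind G, trimmed the RNA, which was recovered from the cytoplasmic lysate with a rat antibody raised against a C-terminal peptide of YB-1. Reads were aligned to the genome, not to spliced transcripts, and a read with several equally good places was put at 1 of them, picked at random by the aligner. Coverage is the mean number of reads per base of a cluster and was not scaled for library depth, so levels were compared within a replicate. The tables do not show whether PCR duplicates were removed, and intervals therefore cover counting error only.

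Clusters of both replicates that overlapped on a strand were joined, which gave 359 regions in 298 pseudogenes on 24 chromosomes. Of these pseudogenes, 40 held more than 1 region. The 298 were 1.96% of the 15233 pseudogenes annotated off the mitochondrial genome. By annotated type, 236 were processed, 24 transcribed processed, 15 unprocessed, 10 transcribed unprocessed, 8 ribosomal RNA, 3 transcribed unitary and 2 unitary pseudogenes. In the annotation these types number 10146, 512, 2609, 961, 497, 155 and 99, in the same order. Of the pseudogenes annotated as transcribed, 2.27% held a region (37 of 1628). By type this was 4.69% of transcribed processed against 2.33% of processed ones, and 1.04% of transcribed unprocessed against 0.575% of unprocessed ones. For unitary ones it was 1.94% against 2.02%, from 3 and 2 pseudogenes. There were 20 clusters that overlapped an exon of a long noncoding RNA as well. The clusters were short, with a median width of 22 bases in both replicates, apart from a single Rep.A cluster of 23429 bases. Sequences of 18 to 100 bases were compared with the genome and with transcripts, 193 in Rep.A and 292 in Rep.B. The rest were too short, apart from the wide one.

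The 10 regions with the highest coverage among those found in both replicates, ranked by the mean of their log2 coverage, are shown first, because they hold the strongest repeated signal. Regions of 1 replicate are not in this list, and MTND4P12, ENSG00000213661, RPL10P16 and HNRNPKP4 had 1194, 200.35, 131.5 and 119 in Rep.B alone. Capitals mark the tetramers CATC and CACC, which were searched on the sense strand alone. Sequences are given 5′ to 3′ as RNA sense in DNA letters, with hg38 positions of the cluster shown, Rep.B where both had one.
MTND1P23, chr1:629325-629344, plus strand: ccaactcataCACCtcctat
MTCO1P12, chr1:631508-631524, plus strand: aacCATCttctccttac
ENSG00000249072, chr4:78008583-78008602, minus strand: atctacaatcaaccaacaag
MTCO1P12, chr1:631092-631113, plus strand: ctattctctacaaaccacaaag
ENSG00000240975, chr11:39161566-39161585, plus strand: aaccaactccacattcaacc
MTND2P28, chr1:629662-629682, plus strand: tCATCtactctacCATCtttg
TUBA5P, chr1:202858945-202858966, minus strand: actccttcaaCACCttcttcag
RPS27AP16, chr16:61055869-61055891, minus strand: tacggggaagacCATCACCctcg
MTND1P23, chr1:629390-629414, plus strand: tctccatacccattacaatctccag
EEF1A1P5, chr9:133020519-133020546, plus strand: ttatcctgaacCATCcaggccaaataag

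The highest of these, in the nuclear copy MTND1P23 of the mitochondrial gene for NADH dehydrogenase subunit 1, had a coverage of 693 in Rep.A and 1778 in Rep.B. MTCO1P12, a copy of the gene for cytochrome c oxidase subunit 1, followed with 419.9 and 1078 at its first listed region and 142.5 and 389 at the second. ENSG00000249072 had 362 and 904. These 4 regions were copies of mitochondrial sequence, by name or by an exact match, and stood above every nuclear-parent region found in both replicates. The highest region with a nuclear parent, in ENSG00000240975, had 84.45 in Rep.A and 203 in Rep.B. This was an exact stretch of the mRNA of RPL18, a protein of the large ribosomal subunit. TUBA5P, whose sequence is that of the alpha-tubulin gene TUBA1B, had 61.9 and 142. RPS27AP16, named for the ubiquitin-ribosomal protein fusion RPS27A, had 71.3 and 121. EEF1A1P5, a copy of the translation elongation factor 1A gene, had 44.4 and 104.

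Of the 214 Rep.A clusters, 79.4% were found in Rep.B (170; 95% Wilson interval 73.5 to 84.3%), and of the 315 Rep.B clusters 54.0% were found in Rep.A (170; 48.4 to 59.4%). The background over all clusters was 80.5% in Rep.A and 55.5% in Rep.B, inside these intervals. In protein-coding exons the shares were 85.3% (627 of 735; 82.6 to 87.7%) and 66.6% (627 of 942; 63.5 to 69.5%). The median coverage of the pseudogene clusters was 7 in Rep.A and 14 in Rep.B, against 13 and 32.95 in protein-coding exons. Among the 170 regions found in both replicates the log2 coverage of Rep.B was a median of 1.26 above that of Rep.A, with an SD of 0.63 over regions, a shift that includes any difference in library depth. Coverage in the replicates was correlated across these regions (Pearson's r = 0.91 on the log2 scale, Spearman's rho = 0.85, n = 170), and r was 0.86 over the 144 without a mitochondrial copy or parent. The regions are not independent, since many share a sequence, so no p-value is given.

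**Figure D1:**
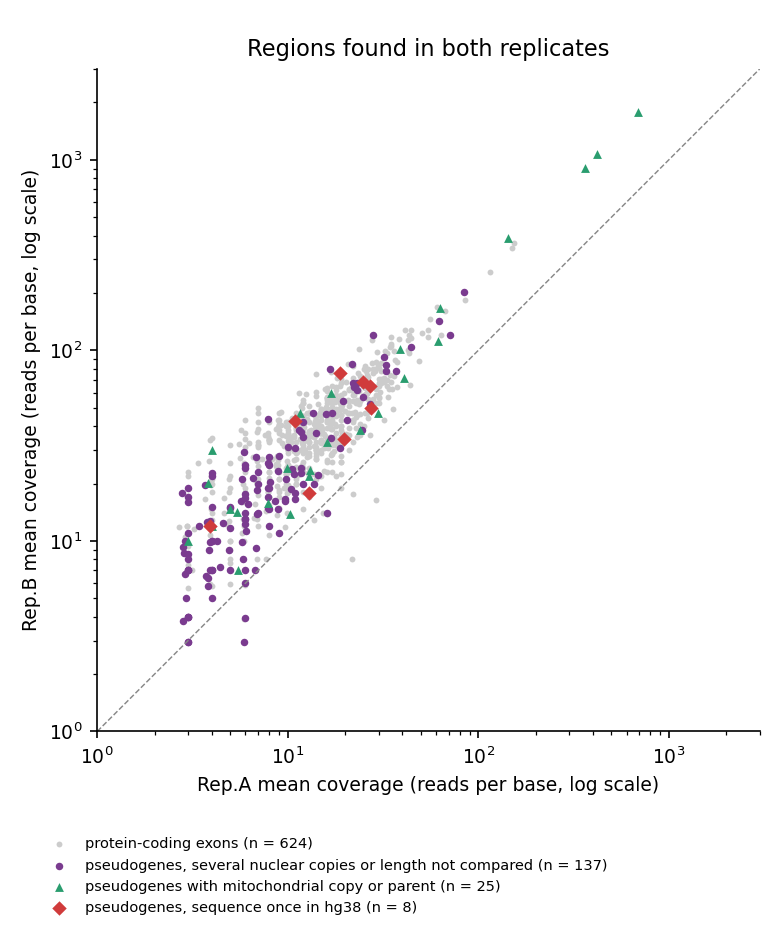
Mean coverage in Rep.A (x axis) and Rep.B (y axis), in reads per base on log axes, of regions found in both replicates; purple circles, green triangles and red diamonds are pseudogene regions, grey points are pairs in protein-coding exons with a coverage of at least 1 in both replicates, and the dashed line marks equal values. The pseudogene regions spread along the same band as the grey points, and the 4 points at the top right are copies of mitochondrial sequence.

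Nearly all of the clusters had a sequence that occurs elsewhere in the genome. The sequence was present exactly once in hg38 for 6.74% of the Rep.A clusters (13 of 193; 3.98 to 11.2%) and 3.77% of the Rep.B clusters (11 of 292; 2.12 to 6.62%). Over all clusters the background was 57.4% in Rep.A and 53.7% in Rep.B. In protein-coding exons it was 78.6% (554 of 705) and 75.2% (684 of 909). The median number of exact copies was 3 in Rep.A and 5 in Rep.B, with a highest value of 43 and 58. More than 5 exact copies were found for 32.6% of the Rep.A clusters (63 of 193; 26.4 to 39.5%) and for 44.2% of the Rep.B clusters (129 of 292; 38.6 to 49.9%), beside 3.12% and 4.51% in protein-coding exons.

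**Figure D2:**
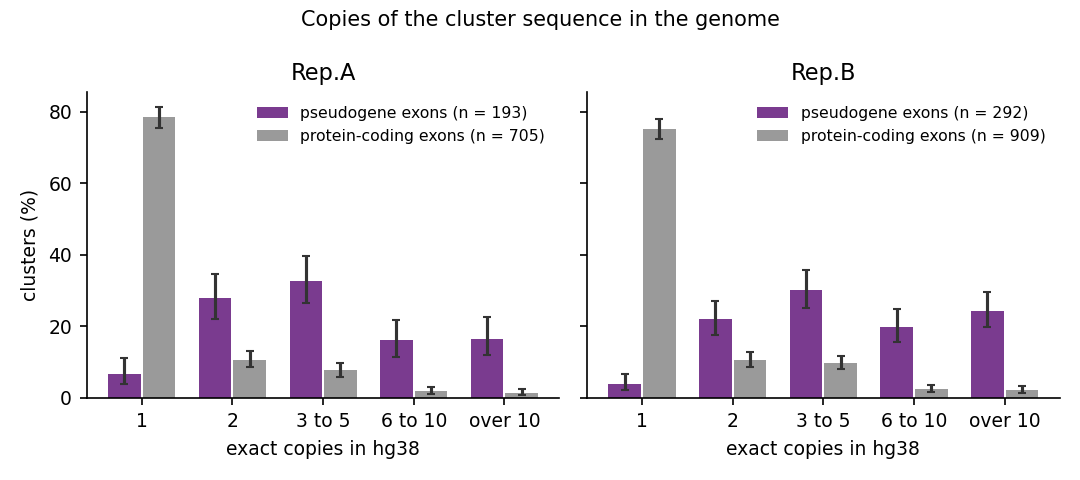
Share of clusters, in percent, by the number of exact copies of their sequence on both strands of hg38, for pseudogene exons (purple) and protein-coding exons (grey) in each replicate; bars are shares of clusters of 18 to 100 bases and lines are 95% Wilson intervals. Most clusters in protein-coding exons have 1 copy, and most in pseudogene exons have 2 or more.

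Most of the sequences were also held by a protein-coding transcript. In Rep.A, 175 of 193 clusters had the sequence of a protein-coding transcript exactly, 171 of them within an exon as the genome holds it and 4 only across a splice junction. In Rep.B these were 269 of 292, with 254 within an exon and 15 only across a junction. By region, the matching stretch lay in the coding sequence for 293 regions, in the 3′ UTR for 7 and in the 5′ UTR for 2. No such split is given for clusters in protein-coding exons, so it is not read as a trait of pseudogene clusters. Of the pseudogene clusters with no exact match, 10 in Rep.A and 11 in Rep.B differed from the closest transcript by 1 base, and 8 and 12 by 2 or more.

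Some sequences stood both in a pseudogene and within an exon of a nuclear gene that encodes a protein. At that place the gene held a cluster of its own for 80 of 145 Rep.A clusters (55.2%, 47.0 to 63.0%). In Rep.B it did for 177 of 225 clusters (78.7%, 72.9 to 83.5%). Where several genes held the sequence, 1 of them was compared, and this was not always the parent by name. ACTG1P21, for example, was paired with POTEE in Rep.A and with POTEJ in Rep.B, so such ratios depend on the gene chosen. The cluster at the gene need not have the same ends as the one at the pseudogene. In Rep.B, clusters of 18 bases in GAPDHP46 and 21 bases in GAPDHP20 were both set against 243 at GAPDH. The log2 ratio of coverage at the pseudogene to coverage at the gene had a median of -0.29 in Rep.A, with quartiles of -0.81 and 0.25, and of -0.33 in Rep.B, with quartiles of -1.29 and 0.29. It was within 1 log2 unit of 0 for 56 of 80 and 109 of 177. The extremes in Rep.B were -5.81 and 2.56. With the pseudogene and the gene as the only exact copies, the median was -0.30 in Rep.A (25 pairs) and -0.19 in Rep.B (35 pairs). For TUBA5P in Rep.B the coverage was 142 and that of TUBA1B at the same sequence 127, whereas in Rep.A TUBA5P had 61.9 and TUBA1B no cluster. The clusters of RPL18 and its pseudogene ENSG00000240975 had 60.9 and 84.45 in Rep.A, and 168 and 203 in Rep.B. For RPS27AP16 the gene was higher, with 151 in Rep.A and 344 in Rep.B against 71.3 and 121. Since reads with several best places were drawn to 1 of them at random, these values do not tell from which copy the RNA came.

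**Figure D3:**
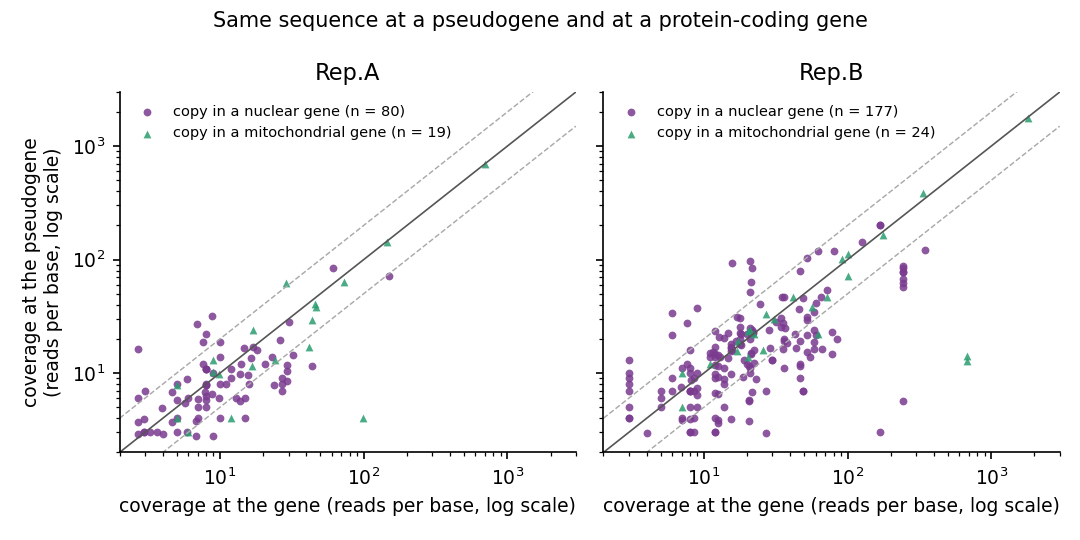
Mean coverage at the pseudogene (y axis) and at an exact copy within a protein-coding gene's exon (x axis), in reads per base on log axes. Clusters are shown where both places held one in the same replicate. Purple circles are copies in nuclear genes and green triangles in mitochondrial genes. The solid line marks equal values and the dashed lines 1 log2 unit to either side. Most points lie between the dashed lines, and in Rep.B the column of points at a gene coverage of 243 is GAPDH.

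By the pseudogene names, 264 regions had a parent gene among the protein-coding genes, 89 parents in all, and 46 of these parents had 1 region. The other 95 regions had no parent by name, 63 of them in genes known by an identifier alone. Of those 63, 53 carried an exact stretch of a protein-coding transcript, which gave a parent by sequence. The 10 parents with the most regions held 109 of them. Of the 89 parents, mitochondrial ones included, 71 held a cluster in their own exons in Rep.A or Rep.B. No share over all protein-coding genes was computed beside this count. Most of the sequences match a protein-coding transcript exactly, and reads were placed at random among equal places. The count is therefore not read as a trait of these parents.

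Pseudogenes of cytosolic ribosomal proteins formed the largest group, with 83 regions in 69 pseudogenes, 26 of them found in both replicates. They were 15.9% of the Rep.A clusters (34 of 214) and 23.8% of the Rep.B clusters (75 of 315). Clusters in exons of the ribosomal protein genes themselves were 4.35% (32 of 735) and 3.82% (36 of 942) of those in protein-coding exons. In the annotation, 10.6% of all pseudogenes (1615 of 15233) have a ribosomal protein parent by name, and 23.2% of those with a region did (69 of 298). With parents by sequence added, the group had 121 regions. Rep.A coverage ran from 2.82 to 71.3, and Rep.B coverage from 2.90 to 131.5. RPLP0P6, a copy of the ribosomal stalk protein gene RPLP0, had 28 in Rep.A and 120.2 in Rep.B at one region. RPS2P5 had 24.5 and 38 at a region too short to compare, and RPL15P3 had 9.8 and 21.0. The 4 regions of RPL10 copies, the highest with 131.5 in Rep.B, were each seen in 1 replicate.

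RPS2, a protein of the small ribosomal subunit, was one of the 2 parents with the most regions, with 16 in 8 of its 25 annotated pseudogenes. All 16 had a Rep.B cluster and 5 had a Rep.A cluster, and the median coverage was 3.91 in Rep.A and 4.94 in Rep.B. RPL15 had 11 regions in 9 of 21 pseudogenes, with medians of 6.47 and 6.58. RPL5 had 9 regions in 8 of 35, with medians of 3.98 and 5. RPL31 had 11 regions in 11 of its 62 pseudogenes, whereas exons of RPL31 itself were without a cluster in both replicates. RPL31P10, RPL31P11 and RPL31P26, which match an RPL31 exon exactly, had 47.1, 41.6 and 41.3 in Rep.B alone. The 2 regions seen in Rep.A had 4 and 27.4.

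Translation factors had 32 regions in 26 pseudogenes, 13 found in both replicates. They were 8.72% of the pseudogenes with a region and 1.39% of all annotated ones. EEF1A1, which brings aminoacyl-tRNA to the ribosome, was the parent of 16 regions in 11 of 49 pseudogenes, and the gene held 1 cluster in each replicate. EEF1A1P11 had 74.4 in Rep.B and no cluster in Rep.A, and EEF1A1P12 had 5.92 and 29.2. EIF4A1, the helicase of the cap-binding complex, had 5 regions with coverage of 6 to 9 in Rep.A and a range of 11 to 47 in Rep.B.

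Glycolytic enzymes had 14 regions, 12 of them with GAPDH as the parent, in 4.03% of the pseudogenes with a region against 0.689% of all annotated. GAPDH regions were found in 10 of its 65 pseudogenes and 8 were in both replicates. Their median coverage was 22.98 in Rep.A and 64.4 in Rep.B. GAPDHP46 had 37 and 78, GAPDHP51 had 32.9 and 77.8, and GAPDHP20 had 21.6 and 84.7. GAPDHP29 had 85 in Rep.A and no cluster in Rep.B, and GAPDHP1 had 87.7 in Rep.B and none in Rep.A.

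**Figure D4:**
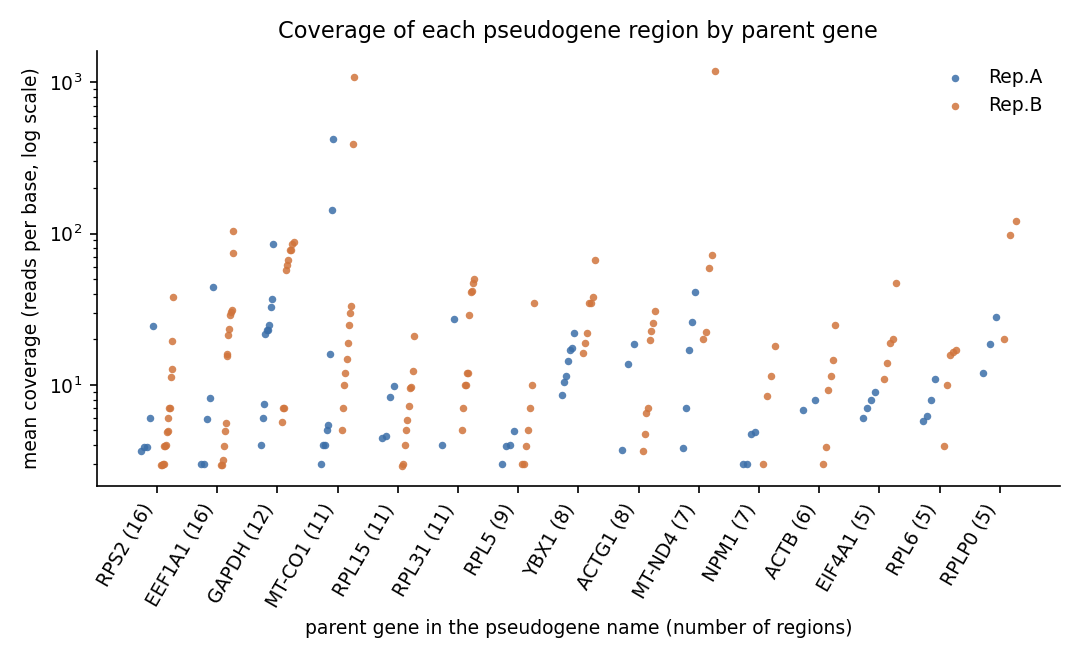
Mean coverage in reads per base, on a log axis, of every region of the 15 parent genes with the most regions, in Rep.A (blue) and Rep.B (orange), with the number of regions in brackets; each point is 1 region. Ribosomal protein parents such as RPS2, RPL15 and RPL5 have most points under 20. GAPDH points have a median of 22.98 in Rep.A and 64.4 in Rep.B. MT-CO1 points at 419.9 and 142.5 in Rep.A and at 1078 and 389 in Rep.B lie above those of the nuclear parents shown. So does an MT-ND4 point at 1194 in Rep.B.

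The smaller groups are given with their share of the 298 pseudogenes with a region and, after it, of all annotated pseudogenes. Actin and tubulin had 14 regions, 5 found in both replicates (3.69% against 0.781%). With parents by sequence added they had 19, 7 in both, among them TUBA5P. ACTG1P12 and ACTG1P10, copies of gamma-actin, had 18.7 and 30.7, and 13.8 and 19.9. Ferritins had 6 regions, 4 in both (2.01% against 0.269%), and the light chain copies FTLP2 and FTLP3 had 10.9 and 30.6, and 7.87 and 25.7. Histones, HMG proteins and histone chaperones had 14, 4 in both (4.36% against 1.82%), to which the parent by sequence added 6, among them H2BC19P with 31.8 and 92.6. Chaperones, isomerases and proteasome had 5 regions, 4 in both, a share close to that in the annotation (1.68% against 1.61%). With parents by sequence added the group had 10 regions, 6 in both, a count with no share in the annotation beside it. STIP1P3, a copy of an Hsp70-Hsp90 adaptor, had 9.65 and 16.7. Nuclear-encoded mitochondrial proteins had 6, 5 in both, a share below that in the annotation (2.01% against 2.76%), and VDAC1P4, a copy of the outer membrane channel VDAC1, had 22.3 and 63.9. Ubiquitin and SUMO pseudogenes held 0 regions among 78 annotated, beside 1.96% of all annotated pseudogenes with a region. This group leaves out the ubiquitin fusion RPS27A, which was counted with the ribosomal proteins.

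RNA-binding proteins had 13 regions, 9 in both replicates (2.68% against 1.40%), and 8 of the 13 belonged to YBX1, the gene of the protein that was precipitated. These lay in 4 of the 10 annotated YBX1 pseudogenes, and 6 were in both replicates. The group had 8 pseudogenes with a region, so these 4 made up much of its share. Pseudogenes with a cold shock domain parent, the same 4, were 1.34% of those with a region and 0.0985% of all annotated. YBX1P6 had 21.9 in Rep.A and 67.3 in Rep.B. YBX1P10 had 16.9 and 34.6 at one region, and 34.9 in Rep.B alone at another. YBX1P1 held 4 regions, of which 3 were in both replicates, with 11.4 and 38.1, 14.4 and 22.2, and 10.4 and 18.8, while the fourth had 17.4 in Rep.A alone. YBX1P2 had 8.59 and 16.2. None of the 5 that could be compared had a sequence present once in the genome, and 3 were too short. Where YBX1 held a cluster at the same sequence its coverage was higher in each of these pairs, and the log2 ratio of YBX1P2 to YBX1 was -1.76 in Rep.A and -1.85 in Rep.B. No region lay in a YBX3 pseudogene. Only 15 annotated pseudogenes have a cold shock domain parent by name, 10 of them YBX1, so this absence rests on few pseudogenes. The sequences of the YBX1 copies are shown because the same fragments recur among them, and capitals would mark CATC or CACC, which none of these holds.
YBX1P1, chr14:66013171-66013197, minus strand, the longer Rep.A cluster: atgggcgtcgaccacagtattccaacc
YBX1P1, chr14:66013313-66013332, minus strand: attaccagcaaaattaccag
YBX1P10, chr9:35971698-35971714, minus strand: atgggcgtcgaccacag
YBX1P10, chr9:35971830-35971849, minus strand: attaccagcaaaattaccag
YBX1P2, chr7:105582742-105582761, minus strand: caattaccagcaaaattacc
YBX1P6, chr9:109533994-109534006, minus strand: gtggagtttgatg

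Nuclear copies of the mitochondrial genome had 37 regions by name, in 18 pseudogenes, with 25 found in both replicates, the second largest group. They were 6.04% of the pseudogenes with a region and 2.65% of all annotated ones. MTCO1P12, MTND1P23 and MTND2P28 lie close together on chr1. Of all regions, 33 had an exact copy on the mitochondrial genome, and at least 41.1% of the covered bases of the Rep.B clusters, and 31.1% in Rep.A, counted as coverage times width, lay in clusters with such a copy. These shares leave out clusters under 18 bases, which were not compared, among them the first MTCO1P12 region in both replicates and ENSG00000249072 in Rep.A, so they are not to be compared between replicates. At MTND1P23 the mitochondrial copy in MT-ND1 had a coverage of 696 in Rep.A and 1789.95 in Rep.B, against 693 and 1778 at the pseudogene. At MTCO1P12 the copy in MT-CO1 had 146 and 334 against 142.5 and 389, and at MTND2P28 the copy in MT-ND2 had 73 and 178 against 63 and 166. Where an exact copy lay within a mitochondrial protein-coding gene, that copy held a cluster for 19 of 26 clusters in Rep.A and 24 of 29 in Rep.B. For those with a cluster at both places, the log2 ratio of the nuclear copy to the mitochondrial one had a median of -0.21 and -0.03. This ratio was within 1 unit of 0 for 15 of 19 clusters in Rep.A and 21 of 24 in Rep.B. Some did not follow this. MTCO2P12 had 12.8 in Rep.B where the highest cluster that overlapped the copy in MT-CO2 had 677. Clusters at the mitochondrial copies need not have the same ends as those at the pseudogenes. ENSG00000249072, whose exact copy is at chrM:2384-2403 in MT-RNR2, the 16S ribosomal RNA of mitochondria, had 362 and 904 with no cluster at the mitochondrial copy in either replicate. MTND4P12 had 1194 in Rep.B at a sequence with 2 exact copies, with no cluster at the copy in MT-ND4 and none at either place in Rep.A.

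Several sequences formed clusters at many identical places. Counted as distinct sets, 153 sequences with 2 or more exact copies had 741 copies, and 488 of these (65.9%) held a cluster in at least 1 replicate. Each sequence was taken from a cluster, so at least 1 of its copies held a cluster by construction. All copies held a cluster for 92 of the 153, and 1 copy alone did for 21. Over the 62 sequences with 3 or more places in Rep.B, the highest coverage among the places was a median of 3.62 times the lowest, with a range from 1.14 to 67.8 times. The sequences with clusters at the most places are shown because they stand for many clusters each, 7 in all since the last 3 tie at 10 places, with CATC and CACC in capitals.
RNA5SP74, 5S ribosomal RNA, chr1:204562444-204562471, minus strand: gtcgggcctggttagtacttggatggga
RPS2P28, RPS2, chr6:43364148-43364165, plus strand: aagacctacagctacctg
GAPDHP37, GAPDH, chr22:40674219-40674238, minus strand: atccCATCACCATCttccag
ACTBP2, ACTB, chr5:77785708-77785727, plus strand: aaactaccttcaactcCATC
H2BP1, histone H2B, chr1:121117020-121117037, minus strand: aCATCttcgagcgCATCg
RPS27P25, RPS27, chr12:120371665-120371689, plus strand: aaacCATCtcaataaacacattttg
RPL15P2, RPL15, chr14:94800992-94801012, minus strand: atCACCaaaccagtccacaag

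The 5S sequence had 58 exact copies, 13 with a cluster, with coverage from 2.72 to 16.6 in Rep.B, and from 5.92 to 70.3 in Rep.A. The RPS2 sequence had 28 copies, 12 pseudogenes and 1 gene with a cluster, and ran from 3 to 38 in Rep.B. Of the 13 copies of the GAPDH sequence, 12 held a cluster, 10 of them in pseudogenes, and in Rep.B they ran from 5.7 to 243, the highest being GAPDH. In Rep.A the range over 8 places was 7.48 to 85. The actin sequence had clusters at 11 of 14 copies, from 3.65 to 14.55 in Rep.B. The H2B sequence had clusters at 10 of 13, from 5.79 to 92.6 in Rep.B, and 6 of the 10 were in protein-coding genes. Of the 11 copies of the RPL15 sequence, 10 held a cluster, all 10 in pseudogenes. The RPS27 sequence also had a cluster at 10 of 11 copies, 1 of them in a pseudogene exon, and ran from 8.88 to 35 in Rep.B.

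The sequences that spanned a splice junction of the parent were those of a processed copy, since the genome holds them unbroken only where the introns are gone. There were 15 such regions, 4 found in both replicates. Capitals mark the bases of the downstream exon.
RNPS1P1, chr4:11372390-11372411, plus strand: ccaaATCCAAACCACCTAAAAG
NCOA4P1, chr14:65880896-65880917, minus strand: ctcaaaaccattCAAATTCCTG
HNRNPKP1, chr5:127512423-127512443, minus strand: taaatTACCAACACTATAAAG
RPL31P4, chr14:58794985-58795005, plus strand: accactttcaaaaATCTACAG
RPS2P28, chr6:43364103-43364126, plus strand: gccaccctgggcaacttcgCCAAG

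RNPS1P1, a copy of the gene of an RNA-binding protein that acts in splicing, had 24.7 in Rep.A and 68 in Rep.B. The printed stretch occurred once in hg38 even with 1 mismatch allowed. It joined the last 4 bases of exon 4 to exon 5 of the RNPS1 transcript with the longest coding sequence. NCOA4P1, a copy of the ferritin receptor gene NCOA4, had 10.95 and 42.7, also occurred once with 1 mismatch allowed, and joined 12 bases of exon 6 to exon 7. HNRNPKP1, a copy of the poly(C)-binding protein gene HNRNPK, had 19.8 and 34.3 and joined 5 bases of exon 8 to exon 9. The RPL31 sequence had 20 exact copies, and clusters in RPL31P4, RPL31P3, RPL31P16, RPL31P39, RPL31P14 and RPL31P44 ran from 5 to 29 in Rep.B, with 4 in Rep.A at RPL31P44 alone. The RPS2 sequence had 15 exact copies, and its clusters ran from 2.96 to 7 in Rep.B with none in Rep.A. Reads of the spliced mRNA that cross these junctions have no unbroken place at the parent gene, and whether the reads came from the mRNA or from the pseudogene was not tested.

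Of the clusters that differed from the closest transcript by 1 base, 18 of 21 had C where the parent has T. These are 9 of 12 distinct sequences, of which those of RPS2 overlap at the same site, as do those of RPL31. None of these 21 clusters, which had no exact match in a protein-coding transcript, had T where the parent has C. The others had A for G, G for A and C for A, 1 cluster each. The direction with C for T is that of the base change by which PAR-CLIP marks a crosslink. It was set apart after the values were seen. Pairs are shown with the differing base in capitals, the pseudogene above the parent transcript.
MTND2P28, chr1:630012-630037, plus strand: acatccggcctgctCcttctcacatg
MT-ND2: acatccggcctgctTcttctcacatg
H2AZ2P1, chr15:92733841-92733863, minus strand: Cccctcacatccacaaatctctg
H2AZ2: Tccctcacatccacaaatctctg
RPS2P5, chr12:118246328-118246350, plus strand: atctcttctccctgccCattaag
RPS2: atctcttctccctgccTattaag
MTND5P17, chr10:36433431-36433455, minus strand: tccatcatccacaacctCaacaatg
MT-ND5: tccatcatccacaacctTaacaatg
MTND4P12, chr5:134927647-134927669, minus strand: aaaccacacttatccccaccCtg
MT-ND4: aaaccacacttatccccaccTtg
ENSG00000260112, chr19:9519037-9519057, plus strand: actaccCtcaactccatcatg
ACTB: actaccTtcaactccatcatg

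Positions are counted from 1 at the 5′ end of the cluster, with the pseudogene base first. MTND2P28 (C15T) had 27 in Rep.A and 65 in Rep.B. H2AZ2P1 (C1T) had 12.96 and 17.8. The RPS2 sequence (C17T) has 7 exact copies in the genome and had 7 clusters, 2 in Rep.A and 5 in Rep.B. Among these were RPS2P5, with 3.91 and 12.8, and in Rep.B alone RPS2P7, with 4.96, and RPS2P55, with 2.96. RPS2P17 had 3.91 in Rep.A, and 7 in Rep.B at the same stretch 1 base shorter (C16T). MTND5P17 (C18T) had 32, MTND4P12 (C21T) had 26 and ENSG00000260112 (C7T) had 10.9, all in Rep.A alone.

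The same was asked from the other side. Pseudogene exons were searched for copies that differed by 1 base from a cluster sequence that a protein-coding mRNA holds exactly, which gave 457 copies. Of the 61 copies with C where the parent has T, 6 held a cluster in Rep.A (9.84%; 4.59 to 19.8%) and 15 in Rep.B (24.6%; 15.5 to 36.7%). Of the other 396, 5 held one in Rep.A (1.26%; 0.54 to 2.92%) and 14 in Rep.B (3.54%; 2.12 to 5.85%). The reverse change, T in the copy and C in the parent, was the most frequent with 158 copies, and 3 (1.90%) and 8 (5.06%) of these held a cluster. The copies of one parent are not independent, and no test was run. A read of the parent with a T-to-C change matches the first kind of copy without a mismatch, and the part of such reads in these clusters was not tested.

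**Figure D5:**
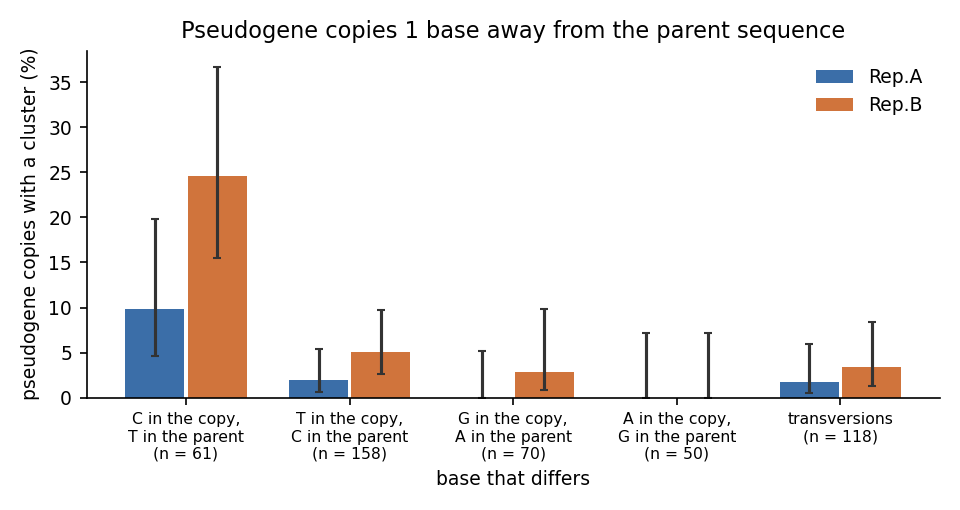
Share, in percent, of pseudogene copies 1 base away from the parent sequence that held a cluster, by the base that differs (x axis, with the number of copies), in Rep.A (blue) and Rep.B (orange); lines are 95% Wilson intervals. The bars for C in the copy and T in the parent, 9.84% and 24.6%, are the highest in each replicate.

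A sequence present once in hg38 was found for 15 regions, 8 of them in both replicates, and these are the places where a pseudogene locus is the only exact match on the genome. Coverage of those 8 ran from 11.9 to 76.4 in Rep.B. Among them, RNPS1P1, NCOA4P1 and HNRNPKP1 spanned a junction of the parent mRNA, and MTND2P28, H2AZ2P1 and a copy of RPL31 were 1 base from the parent with C for T. The RPL31 copy had 27.4 in Rep.A and 50 in Rep.B. The last 2 matched no protein-coding transcript exactly. They differed by more than 1 base from the transcript with the longest coding sequence of every protein-coding gene. LINC02210, typed as a transcribed unitary pseudogene, had 18.9 and 76.4, and the closest protein-coding transcript differed by 2 bases. ZNF271P, a zinc finger gene of the same type, had 3.91 and 11.9 at a region with no other place in the genome within 1 mismatch. They are shown with CATC and CACC in capitals.
LINC02210, chr17:45636604-45636623, plus strand: taaaCACCACCttccatttc
ZNF271P, chr18:35307073-35307094, plus strand: ctccaaccttattcttCATCag

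The tetramers CATC and CACC were counted on the sense strand in clusters of up to 100 bases. CATC was in 36.2% of the Rep.A clusters (77 of 213; 30.0 to 42.8%) and 34.9% of the Rep.B clusters (110 of 315; 29.9 to 40.3%), beside a background of 36.1% and 32.8% over all clusters and 43.7% and 42.4% in protein-coding exons. CACC was in 38.03% (81 of 213; 31.8 to 44.7%) and 40.6% (128 of 315; 35.4 to 46.1%), beside 35.5% and 33.9% over all clusters and 41.9% and 41.4% in protein-coding exons. The last base was G in 87.4% (82.3 to 91.2%) and 87.6% (83.5 to 90.8%), against 95.8% and 95.4% in protein-coding exons and 83.1% and 77.7% over all clusters. A single T-to-C position was listed for 84.6% and 82.2% of the pseudogene clusters, and for 84.1% and 83.0% in protein-coding exons. The median crosslinking efficiency, the listed transitions over the T bases, was 0.21 and 0.25, against 0.20 in both replicates of protein-coding exons.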

How the data were processed

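YB-1 PAR-CLIP clusters of 2 replicates were analysed. Per the submitters' processing notes and the methods, the authors used cutadapt 2.10 for trimming and Bowtie 1.0.0 for alignment to hg38, and called clusters in each replicate separately with wavClusteR. Coverage in the deposited tables is a signal, the mean reads at a base, with no depth scaling. The authors listed transitions and T bases as counts, crosslinking efficiency as a fraction and log odds as a score. The tables name no genes. The deposited sequence is that of the plus strand, so it was turned for clusters on the minus strand. All 1382 and 2011 sequences then matched hg38.

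Exons were taken from GENCODE release 44. A parent by name is the pseudogene symbol without its final P and number, where that is a protein-coding symbol. Copies were searched exactly and with 1 mismatch on both strands of chromosomes 1 to 22, X, Y and M, for sequences of 18 to 100 bases, and the search was tested on simulated data. Transcript matches were on the sense strand. Exact matches were searched in all protein-coding transcripts. The closest transcript was searched without gaps, for each gene in the transcript with the longest coding sequence, so other isoforms were not covered. A cluster was found in the other replicate when they shared at least 1 base on a strand. Shares have 95% Wilson intervals. With 2 replicates of 1 condition no test between groups was possible, and none was run over clusters. Per-library depth is not used here. The named genes are the 10 parents with the most regions, the 10 regions of highest coverage, the regions present once in the genome, the 5 sequences with the most places (7 with ties), examples of each gene group, and the pseudogenes of YBX1 and YBX3. Members, groups and lists were chosen with earlier results of these data known. Clusters 1 base from the closest transcript with T for its C were to be named too, and among clusters with no exact transcript match there were 0. Not every region these rules select is described. Tools were matplotlib 3.10.9, scipy 1.17.1, pandas 2.3.3 and numpy 2.4.6 under Python 3.11.15.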

Additional observations from a re-analysis of the deposited data

How the results depend on the processing

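Of 43 recomputed values, 25 stayed within 1.5 times a count or within the interval or replicate spread of a share or median, and 18 moved. A score of at least the replicate's median left 94 clusters in Rep.A, 139 in Rep.B and 54 regions in both, and a coverage of at least 10 left 79, 204 and 66. With that coverage in both tables, 32.4% of the Rep.B clusters were found in Rep.A. With at most 1 mismatch, 2.07% and 1.03% of the sequences were present once, and 95.9% of both replicates' sequences (95.85% and 95.89%) were in a protein-coding transcript. Among sequences present once, CACC was in 30.8% and 27.3%, CATC in 45.5% in Rep.B, and the median coverage was 18.9 and 34.3, from 13 and 11 clusters. Without one replicate, ribosomal protein pseudogenes had 34 to 75 regions, pseudogenes with a cluster numbered 187 to 263, and parents 73 to 80. No paired analysis was possible because there was 1 condition. Low coverage, with a median of 7 and 14 reads per base, and random placement limit what can be read from a single locus.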
